A study of Mus musculus with 30 samples.

Results

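Colonic Fgfr2+ FB were compared with colonic PDGFRα hi FB, a pair of fibroblast (FB) subsets sorted from the lamina propria of the mouse colon. The members were taken by label alone, as the 3 colonic libraries labelled Fgfr2+ FB and the 3 labelled PDGFRα hi FB, 6 of the 30 bulk RNA-seq libraries of the series. The remaining 24 libraries hold pericytes and further FB subsets of the colon and the sorted mesenchymal populations of the small intestine. All groups came from untreated C57BL6/Nrj mice at 8-10 weeks of age. Dead, lineage-positive, CD31+, BP3+, EpCAM+ and NCAM hi cells were gated out, after which colonic Fgfr2+ FB were gated as ESAM-1-PDPN hiCD34+CD90- and colonic PDGFRα hi FB as ESAM-1-PDPN+CD34-. The colonic gates thus used CD34 and not PDGFRα itself, whereas the small intestinal gates for the same subsets used PDGFRα and took CD34- cells for both.

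Fibroblasts beneath the gut epithelium are a source of the secreted signals that place stem cell division at the crypt base and differentiation above it. In this tissue PDGFRα hi FB are known as subepithelial cells rich in BMP ligands and in the non-canonical Wnt ligand WNT5A, while FB with less PDGFRα are known for canonical Wnt ligands, R-spondins and secreted BMP antagonists, which oppose BMP signalling near the crypt base. FGFR2, which gives the other subset its name, is a receptor tyrosine kinase whose ligands include FGF7 and FGF10.

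The question was which genes differ between these subsets within the colon. Estimated counts summed to 8740291, 9785938 and 9690792 in replicates 1 to 3 of Fgfr2+ FB and to 7248567, 6865683 and 6986681 in those of PDGFRα hi FB. Levels in CPM, counts divided by the TMM-scaled library size, stand in the order of replicates 1, 2 and 3. Log2 fold changes are Fgfr2+ FB minus PDGFRα hi FB, so that negative values are higher in PDGFRα hi FB, and adjusted p are Benjamini-Hochberg values from the quasi-likelihood test of edgeR over all genes tested (n = 3 against 3, 2-sided). A gene was called differentially expressed at an adjusted p below 0.05 with an absolute log2 fold change above 1.5. Of 14407 genes tested, 478 were called (3.32%). Of these 256 (1.78%) had the higher level in Fgfr2+ FB and 222 (1.54%) the higher level in PDGFRα hi FB. The median log2 fold change of all genes tested was 0.03. By these shares a short list may hold no call in a direction, so the absence of calls in a list below is no result about that list. In place of 478, DESeq2 called 799 genes, a model of the 15 colonic libraries 248 and a test of single transcripts 113. The groups did not overlap at any of the 478 called genes, nor at 2848 of all genes tested (19.8%). Where a called gene is said below to show no overlap, this restates what held for every call. With each library left out in turn between 289 and 512 genes were called, the count falling to 289, 309 and 309 without replicate 1, 2 and 3 of PDGFRα hi FB. In each of these 6 fits 232 of the 478 genes were called, 132 of the Fgfr2+ FB side and 100 of the PDGFRα hi FB side. The labels name 3 individual mice. Subsets were sorted from the same animals in independent sorts, but what a replicate number marks is not stated. Libraries may thus share a mouse, and a fit blocked by these numbers called 438 genes, 407 of them among the 478. The p-values measure the spread between these samples. In bulk samples a difference in the number of cells of a type and a difference in RNA per cell cannot be told apart.

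The labels were checked against *Fgfr2*, *Pdgfra*, *Wnt5a* and the genes of the sorting proteins. *Fgfr2* was at 522, 460.1 and 447 CPM in Fgfr2+ FB and 112, 214 and 118 in PDGFRα hi FB (log2 fold change 1.68 with SE 0.27, adjusted p = 0.00377). *Pdgfra* was at 651, 729 and 801 CPM in Fgfr2+ FB and 2387, 2466 and 2548 in PDGFRα hi FB (log2 fold change -1.77 with SE 0.17, adjusted p = 0.000104). *Wnt5a* was at 13.1, 40.8 and 46.0 CPM in Fgfr2+ FB and 649, 508 and 639 in PDGFRα hi FB (log2 fold change -4.18 with SE 0.42, adjusted p = 0.000150). All 3 markers separated the subsets in the direction of the labels, with no overlap, and the *Fgfr2* transcript was still measured in every PDGFRα hi FB library. A model of the 15 colonic libraries did not call 33 of the 130 called genes named in the text, *Fgfr2* (1.67) among them. All 33 are listed with the processing below, and not every one is marked beside its values. *Cd34*, which the gates used, was at 549, 389.8 and 551 CPM in Fgfr2+ FB and 31.7, 37.3 and 33.3 in PDGFRα hi FB (log2 fold change 3.86). *Thy1*, which encodes CD90, was at 29.4, 23.8 and 27.1 CPM in Fgfr2+ FB and 2.45, 0 and 2.31 in PDGFRα hi FB, so that Fgfr2+ FB, sorted as CD90-, held more of the transcript (log2 fold change 4.05, adjusted p = 0.0375). That call was lost without replicate 2 (4.14) or replicate 3 (4.05) of Fgfr2+ FB or replicate 1 (4.52) or replicate 3 (4.41) of PDGFRα hi FB, with the log2 fold change in parentheses. *Pdpn*, used in both gates, was at 40.0, 59.5 and 52.1 CPM in Fgfr2+ FB and 48.7, 55.4 and 67.3 in PDGFRα hi FB and was not called, and neither was *Itgb1*, an integrin chain common to mesenchymal cells, at 908, 815 and 798 CPM in Fgfr2+ FB and 911, 859 and 829 in PDGFRα hi FB. *Foxl1*, the winged helix factor that marks subepithelial telocytes, was at 2.57, 6.36 and 20.5 CPM in Fgfr2+ FB and 54.6, 52.2 and 70.8 in PDGFRα hi FB (log2 fold change -2.60 with SE 0.65, adjusted p = 0.0458), all PDGFRα hi FB libraries lying above the highest Fgfr2+ FB library. It was not called without replicate 2 (-2.35) of Fgfr2+ FB or replicate 1 (-2.66), replicate 2 (-2.69) or replicate 3 (-2.45) of PDGFRα hi FB. Of 8 sorting genes 7 were tested, and 2 were higher in Fgfr2+ FB and 1 in PDGFRα hi FB.

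BMP ligands were mostly higher in PDGFRα hi FB. Of 7 ligands tested 4 were called higher in PDGFRα hi FB and 1 was called higher in Fgfr2+ FB, with a median log2 fold change of -1.97 against 0.03 for all genes tested. *Bmp2* was at 89.1, 62.6 and 82.2 CPM in Fgfr2+ FB and 477, 522 and 547 in PDGFRα hi FB (log2 fold change -2.73 with SE 0.23, adjusted p = 4.65e-05). *Bmp7* was at 92.8, 62.0 and 55.6 CPM in Fgfr2+ FB and 673, 669 and 647 in PDGFRα hi FB (log2 fold change -3.25 with SE 0.25, adjusted p = 2.76e-05). *Bmp3*, a ligand known to antagonise other BMPs, was at 43.3, 23.7 and 21 CPM in Fgfr2+ FB and 589, 790.5 and 608 in PDGFRα hi FB (log2 fold change -4.50 with SE 0.32, adjusted p = 1.73e-05). Each of these was low in all Fgfr2+ FB libraries and high in all PDGFRα hi FB libraries. *Bmp5* differed less steeply, at 689, 678 and 508 CPM in Fgfr2+ FB and 2409, 2696 and 2196 in PDGFRα hi FB (log2 fold change -1.97 with SE 0.19, adjusted p = 0.000114). *Bmp6* ran the other way, at 216, 236 and 190.3 CPM in Fgfr2+ FB and 65.1, 79.0 and 75.4 in PDGFRα hi FB (log2 fold change 1.54 with SE 0.23, adjusted p = 0.00258), with every Fgfr2+ FB library above every PDGFRα hi FB library, but fell below the fold threshold without replicate 2 (1.48) of Fgfr2+ FB or replicate 1 (1.47) of PDGFRα hi FB. *Bmp4* was not called (log2 fold change -0.17 with SE 0.17, adjusted p = 0.761), at 1581, 2052 and 2114 CPM in Fgfr2+ FB and 2098, 2016 and 2324 in PDGFRα hi FB, and the groups overlapped. With a library left out its log2 fold change lay between -0.24 and -0.05. Per transcript length, *Bmp4* was the most abundant of these ligands in both subsets, at 2137 ± 334 TPM (SD, n = 3) in Fgfr2+ FB and 2816 ± 251 TPM in PDGFRα hi FB. *Bmp5* followed at 302 ± 58.5 TPM in Fgfr2+ FB and 1312 ± 120.5 TPM in PDGFRα hi FB. For PDGFRα hi FB, *Bmp7* (378 ± 15 TPM) and *Bmp2* (299 ± 15.5 TPM) came next, whereas for Fgfr2+ FB *Bmp6* (169.8 ± 24.5 TPM) came ahead of *Bmp2* (40.4 ± 6.58 TPM) and *Bmp7* (35.9 ± 10.3 TPM).

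BMP antagonist genes were called in both directions. Of 12 tested, 1 was higher in Fgfr2+ FB and 3 were higher in PDGFRα hi FB, with a median log2 fold change of 0.67. *Grem1*, which encodes the secreted BMP antagonist gremlin 1, was at 161, 389.5 and 504 CPM in Fgfr2+ FB and 25.1, 3.81 and 10.3 in PDGFRα hi FB (log2 fold change 4.73 with SE 0.64, adjusted p = 0.00117). The antagonists *Nbl1*, at 50.5, 76.4 and 69.2 CPM in Fgfr2+ FB and 382, 308 and 316 in PDGFRα hi FB (log2 fold change -2.37 with SE 0.25, adjusted p = 0.000181), and *Twsg1*, at 534, 502 and 657 CPM in Fgfr2+ FB and 1647, 1740 and 2507 in PDGFRα hi FB (log2 fold change -1.81 with SE 0.21, adjusted p = 0.000493), were higher in PDGFRα hi FB. All *Grem1* values of Fgfr2+ FB lay above all those of PDGFRα hi FB, and the reverse held for *Nbl1* and *Twsg1*. *Fst*, which encodes the activin and BMP antagonist follistatin, was at 0, 0 and 0.217 CPM in Fgfr2+ FB and 16.5, 16.3 and 7.88 in PDGFRα hi FB (adjusted p = 0.00487). Because no Fgfr2+ FB library had more than 3 counts of *Fst*, no fold is given for it. *Fstl1*, the follistatin-like member with the most counts, was not called, at 1310, 1362 and 2077 CPM in Fgfr2+ FB and 992, 804 and 1211 in PDGFRα hi FB (log2 fold change 0.65 with SE 0.23, adjusted p = 0.181). Its log2 fold change was 0.41 without replicate 3 of Fgfr2+ FB and 0.81 without replicate 3 of PDGFRα hi FB. None of the 8 BMP receptor genes was called by edgeR (median 0.29) or DESeq2, with 1 in each direction at an unadjusted p below 0.05. Beside the 3.32% called by edgeR over all genes tested, this says little for so short a list. Of 9 BMP response genes 1 was called, *Id4*, at 20.0, 17.4 and 12.5 CPM in Fgfr2+ FB and 0.367, 0.131 and 1.09 in PDGFRα hi FB (log2 fold change 4.94 with SE 0.91, adjusted p = 0.00920). *Id4* was not called without replicate 1 (4.74) of PDGFRα hi FB. The response gene *Id3* was at 101, 69.4 and 98.6 CPM in Fgfr2+ FB and 92.4, 102 and 96.5 in PDGFRα hi FB, with overlapping groups and no call.

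Wnt ligand genes were called in both directions. Of 7 tested, the canonical ligands *Wnt2b* and *Wnt2* were higher in Fgfr2+ FB and *Wnt5a* in PDGFRα hi FB, with a list median of -0.79. *Wnt2b* was at 535, 942 and 618 CPM in Fgfr2+ FB and 95.2, 131 and 75.4 in PDGFRα hi FB (log2 fold change 2.79 with SE 0.29, adjusted p = 0.000177). *Wnt2* was at 6.96, 9.40 and 14.4 CPM in Fgfr2+ FB and 0, 0 and 0.272 in PDGFRα hi FB (adjusted p = 0.0125), with at most 3 counts in any PDGFRα hi FB library and no call without replicate 1 (adjusted p = 0.0631) or replicate 2 (adjusted p = 0.0502) of PDGFRα hi FB. In TPM, *Wnt2b* was at 399 ± 133 in Fgfr2+ FB and 64.7 ± 17.9 in PDGFRα hi FB, while *Wnt5a* was at 16.0 ± 11.3 in Fgfr2+ FB and 303 ± 89.4 in PDGFRα hi FB, so that the most abundant Wnt ligand transcript per length was *Wnt2b* in one subset and *Wnt5a* in the other. *Wnt4* was not called, at 105, 58.5 and 136 CPM in Fgfr2+ FB and 112, 226 and 181 in PDGFRα hi FB. *Rspo3*, an R-spondin that amplifies Wnt signalling at stem cells, was at 57.7, 21.8 and 26.4 CPM in Fgfr2+ FB and 6.24, 1.84 and 2.17 in PDGFRα hi FB (log2 fold change 3.35 with SE 0.67, adjusted p = 0.0160), the only 1 of 2 R-spondins tested to be called, and it was not called without replicate 2 (3.05) or replicate 3 (3.11) of PDGFRα hi FB. Among 13 Wnt antagonists 2 were higher in Fgfr2+ FB and 1 in PDGFRα hi FB (median 0.15). *Sfrp1*, a secreted Wnt-binding protein, was at 3342, 3420 and 3619 CPM in Fgfr2+ FB and 80.2, 169.9 and 146 in PDGFRα hi FB (log2 fold change 4.71 with SE 0.28, adjusted p = 8.86e-06). *Wif1*, which encodes Wnt inhibitory factor 1, was without a count in Fgfr2+ FB. It was at 23.1, 37.1 and 28.0 CPM in PDGFRα hi FB, at least 93.9-fold higher against 3 counts per library (adjusted p = 0.000320). *Dkk3* was at 872, 894 and 1085 CPM in Fgfr2+ FB and 875, 1235 and 1361 in PDGFRα hi FB, with overlapping groups and no call. Of 16 Wnt receptor genes 2 were called, both higher in Fgfr2+ FB (median -0.18). The frizzled gene *Fzd1* was at 827, 1132 and 996 CPM in Fgfr2+ FB and 270.4, 271 and 346 in PDGFRα hi FB (log2 fold change 1.73). *Fzd4* was at 123, 161 and 173 CPM in Fgfr2+ FB and 25.0, 16.9 and 20.1 in PDGFRα hi FB (log2 fold change 2.87). Of 8 Wnt response genes 2 were higher in Fgfr2+ FB at an unadjusted p below 0.05, with 0 called by edgeR or DESeq2 in that direction. Their only call by edgeR (median -1.27) was the cyclin gene *Ccnd1*, at 55.6, 61.9 and 69.7 CPM in Fgfr2+ FB and 288, 205 and 375 in PDGFRα hi FB (log2 fold change -2.22 with SE 0.27, adjusted p = 0.000637), with every PDGFRα hi FB library above every Fgfr2+ FB library.

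**Figure D1:**
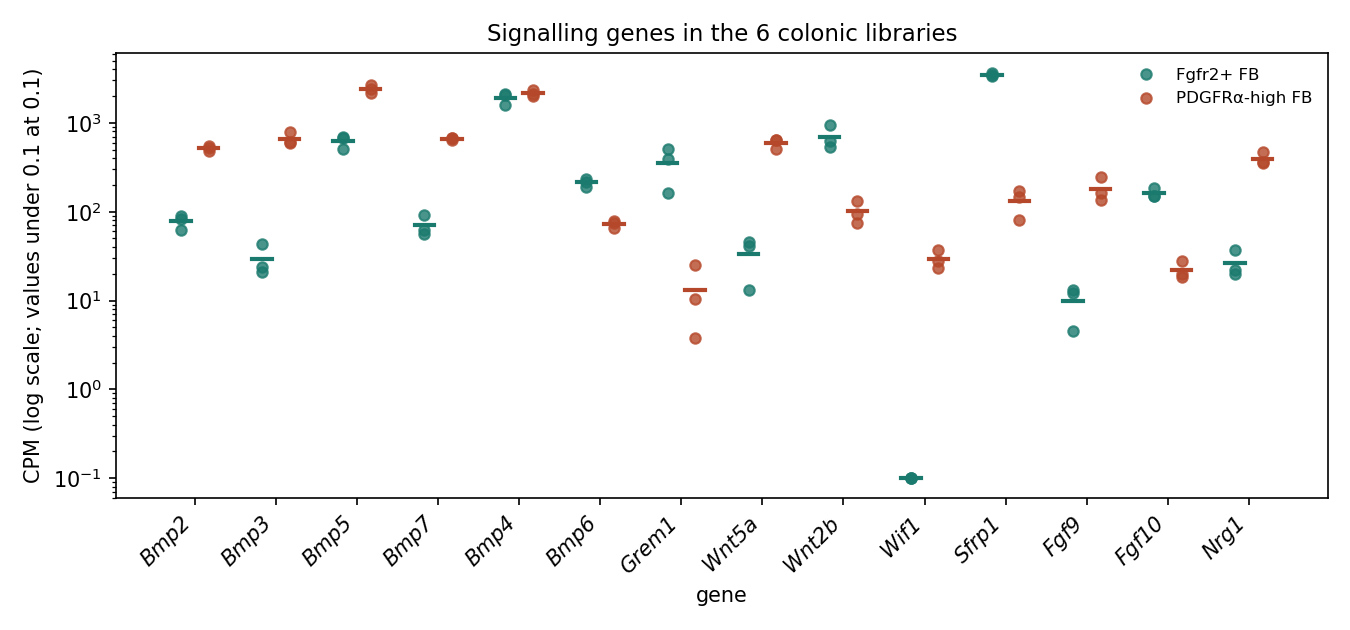
CPM (log scale) of 14 genes of BMP, Wnt, FGF and neuregulin signalling in the 3 libraries each of colonic Fgfr2+ FB (green) and colonic PDGFRα hi FB (orange). Points are libraries, bars are means, and values under 0.1 CPM are drawn at 0.1. The groups overlap at *Bmp4* alone among the genes shown, which is also the only gene shown that was not called.

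Other growth factor genes were also called in both directions. Among 9 FGF ligands 1 was called each way (median 0.00). *Fgf10* was at 149, 185 and 149.9 CPM in Fgfr2+ FB and 28.0, 19.9 and 18.3 in PDGFRα hi FB (log2 fold change 2.86 with SE 0.30, adjusted p = 0.000198). *Fgf9* was at 12.3, 4.50 and 13.1 CPM in Fgfr2+ FB and 135, 246 and 164 in PDGFRα hi FB (log2 fold change -4.19 with SE 0.45, adjusted p = 0.000221). *Fgf7* was at 80.8, 95.3 and 52.1 CPM in Fgfr2+ FB and 194, 122 and 159 in PDGFRα hi FB and was not called (log2 fold change -1.07 with SE 0.30, adjusted p = 0.0801). Of 6 FGF receptor genes *Fgfr2* alone was called (median 0.13, between 0.07 and 0.89 over the scalings tried), and *Fgfr1* was at 266, 284 and 381 CPM in Fgfr2+ FB and 279, 224 and 179 in PDGFRα hi FB with overlapping groups. *Nrg1*, which encodes the ERBB ligand neuregulin 1, was at 37.5, 22.3 and 19.7 CPM in Fgfr2+ FB and 354, 473 and 359.5 in PDGFRα hi FB (log2 fold change -3.91 with SE 0.31, adjusted p = 3.28e-05), the only call among 11 neuregulin and EGF family genes (median -0.87). *Nrg1* was not called in the model of 15 colonic libraries (-3.92). *Vegfa* was at 56.2, 36.0 and 31.3 CPM in Fgfr2+ FB and 163, 197 and 232 in PDGFRα hi FB (log2 fold change -2.27 with SE 0.30, adjusted p = 0.00108). The VEGF and semaphorin co-receptor gene *Nrp1* was higher in Fgfr2+ FB, at 250.3, 295 and 209 CPM in Fgfr2+ FB and 80.1, 87.8 and 92.8 in PDGFRα hi FB (log2 fold change 1.53), and fell under the fold threshold without replicate 2 (1.41) of Fgfr2+ FB or replicate 1 (1.47) of PDGFRα hi FB. In all, 18 genes of the PDGF and VEGF families were tested, with 1 called higher in Fgfr2+ FB and 3 in PDGFRα hi FB (median -0.03).

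Of 13 genes of the TGF-β family 3 were higher in Fgfr2+ FB and 1 in PDGFRα hi FB (median 0.30). *Inhba*, the activin A subunit gene, was at 8.57, 29.4 and 47.4 CPM in Fgfr2+ FB and 346, 242 and 473 in PDGFRα hi FB (log2 fold change -3.65 with SE 0.52, adjusted p = 0.00166). *Tgfb3* was at 69.7, 143 and 166 CPM in Fgfr2+ FB and 21.5, 24.7 and 24.9 in PDGFRα hi FB (log2 fold change 2.41 with SE 0.37, adjusted p = 0.00254). *Ltbp1*, which encodes a protein that stores latent TGF-β in the matrix, was at 452, 491 and 561 CPM in Fgfr2+ FB and 137, 170.5 and 146 in PDGFRα hi FB (log2 fold change 1.72 with SE 0.21, adjusted p = 0.000520), and was not called with length-scaled counts (1.33). The groups did not overlap at any of these genes, the activin gene being the high one of PDGFRα hi FB. The co-receptor gene *Tgfbr3* was the remaining call, at 452, 826 and 695 CPM in Fgfr2+ FB and 179, 238 and 167 in PDGFRα hi FB (log2 fold change 1.75). Of 9 IGF family genes 2 were called by edgeR, both higher in Fgfr2+ FB (median 0.49), while 1 was higher in PDGFRα hi FB at an unadjusted p below 0.05 and DESeq2 called 1 in that direction. The calls by edgeR were the IGF-binding protein genes *Igfbp3*, at 1865, 1900 and 1682 CPM in Fgfr2+ FB and 349, 625 and 270.0 in PDGFRα hi FB (log2 fold change 2.12 with SE 0.28, adjusted p = 0.00102), and *Igfbp4*, at 378, 526 and 509.6 CPM in Fgfr2+ FB and 91.5, 115 and 154 in PDGFRα hi FB (log2 fold change 1.96 with SE 0.25, adjusted p = 0.000872). Hedgehog genes numbered 15, with 2 higher in Fgfr2+ FB and 1 in PDGFRα hi FB (median 0.12). *Ptch1*, a hedgehog receptor and target, was at 1266, 1757 and 1915 CPM in Fgfr2+ FB and 2209, 2067 and 2840 in PDGFRα hi FB and was not called.

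Complement genes were called in 1 direction. Of 21 tested, 5 were higher in Fgfr2+ FB and none in PDGFRα hi FB by edgeR, with a median log2 fold change of 0.68 against 0.03 for all genes tested. In the direction of PDGFRα hi FB, 2 had an unadjusted p below 0.05 and DESeq2 called 1. *C3*, the central complement component, was at 455, 1195 and 2453 CPM in Fgfr2+ FB and 29.6, 58.1 and 76.2 in PDGFRα hi FB (log2 fold change 4.64 with SE 0.57, adjusted p = 0.000637). *C4b* was at 336, 565 and 538 CPM in Fgfr2+ FB and 26.4, 87.5 and 48.2 in PDGFRα hi FB (log2 fold change 3.14 with SE 0.40, adjusted p = 0.000821). *C3* spread widely within Fgfr2+ FB, yet its lowest Fgfr2+ FB library lay above its highest PDGFRα hi FB library. *Cd55*, a membrane inhibitor of complement, was at 655, 540.5 and 605 CPM in Fgfr2+ FB and 30.2, 21.1 and 13.0 in PDGFRα hi FB (log2 fold change 4.79 with SE 0.33, adjusted p = 1.48e-05).

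Chemokine and cytokine genes were called in both directions. Of 24 chemokine genes 1 was called each way (median 0.39). *Ccl11*, which encodes the eosinophil attractant eotaxin, was at 618, 565 and 514 CPM in Fgfr2+ FB and 6.98, 21.8 and 15.4 in PDGFRα hi FB (log2 fold change 5.26 with SE 0.39, adjusted p = 2.13e-05). *Cxcl14* was at 4.50, 7.64 and 8.89 CPM in Fgfr2+ FB and 85.5, 131 and 64.7 in PDGFRα hi FB (log2 fold change -3.75 with SE 0.44, adjusted p = 0.000463). *Cxcl12*, the chemokine gene with the most counts among those not called, was at 951, 1217 and 1074 CPM in Fgfr2+ FB and 1171, 1657 and 1292 in PDGFRα hi FB. Of 16 cytokine genes 3 were higher in Fgfr2+ FB and 1 in PDGFRα hi FB (median 0.38). *Il33*, which encodes the alarmin interleukin 33, was at 97.4, 40.7 and 91.7 CPM in Fgfr2+ FB and 0.612, 0.919 and 0.136 in PDGFRα hi FB (log2 fold change 7.06 with SE 0.67, adjusted p = 0.000106). *Il1rl1*, the gene of its receptor ST2, was at 9.42, 2.35 and 2.49 CPM in Fgfr2+ FB and 55.8, 18.9 and 37.9 in PDGFRα hi FB (log2 fold change -2.99 with SE 0.69, adjusted p = 0.0321), so that the ligand was higher in one subset and the receptor in the other. The receptor was not called without replicate 2 (-2.65) or replicate 3 (-2.68) of Fgfr2+ FB or replicate 1 (-2.58) or replicate 3 (-2.99) of PDGFRα hi FB, and it was the only call by edgeR among 24 cytokine receptor genes (median -0.09). In the direction of Fgfr2+ FB, 1 of these had an unadjusted p below 0.05 and DESeq2 called 1. *Tnfsf13b*, which encodes the B cell survival factor BAFF, was at 61.8, 121 and 70.3 CPM in Fgfr2+ FB and 10.7, 20.5 and 14.4 in PDGFRα hi FB (log2 fold change 2.47 with SE 0.41, adjusted p = 0.00490). *Il6* was at 1.39, 7.73 and 7.37 CPM in Fgfr2+ FB and 0, 0.131 and 0 in PDGFRα hi FB (adjusted p = 0.0279), low in both subsets, with at most 3 counts in any PDGFRα hi FB library and no call without replicate 1 (adjusted p = 0.126), replicate 2 (adjusted p = 0.0705) or replicate 3 (adjusted p = 0.109) of PDGFRα hi FB.

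Retinoid genes were called in both directions. Of 22 tested, 3 were called each way (median 0.46). Among the retinaldehyde dehydrogenase genes, which make retinoic acid, *Aldh1a1* was at 99.7, 53.6 and 51.6 CPM in Fgfr2+ FB and 601, 563 and 646 in PDGFRα hi FB (log2 fold change -3.15 with SE 0.29, adjusted p = 9.1e-05). *Aldh1a3* was at 90.4, 90.7 and 59.8 CPM in Fgfr2+ FB and 11.8, 20.5 and 15.8 in PDGFRα hi FB (log2 fold change 2.32 with SE 0.38, adjusted p = 0.00407). *Aldh1a2* did not differ by call, at 245, 187 and 176 CPM in Fgfr2+ FB and 211, 211 and 201 in PDGFRα hi FB. Thus *Aldh1a1* was high in PDGFRα hi FB, *Aldh1a3* in Fgfr2+ FB, and the values of *Aldh1a2* overlapped. *Adh1*, an alcohol dehydrogenase that oxidises retinol, was at 84.9, 136 and 100.5 CPM in Fgfr2+ FB and 0.367, 0.525 and 3.67 in PDGFRα hi FB (log2 fold change 6.13 with SE 0.74, adjusted p = 0.000580). *Rbp4*, the retinol carrier gene, was at 8.35, 15.8 and 9.86 CPM in Fgfr2+ FB and 97.0, 69.5 and 152 in PDGFRα hi FB (log2 fold change -3.23 with SE 0.42, adjusted p = 0.000963).

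In the prostaglandin pathway 18 genes were tested, and 1 was higher in Fgfr2+ FB and 3 in PDGFRα hi FB (median 0.12). *Ptgs1* and *Ptgs2* encode the cyclooxygenases COX-1 and COX-2. *Ptgs1* was at 86.6, 91.0 and 81.5 CPM in Fgfr2+ FB and 298, 289 and 413 in PDGFRα hi FB (log2 fold change -1.96 with SE 0.23, adjusted p = 0.000513). *Ptgs2* was at 55.0, 53.3 and 55.7 CPM in Fgfr2+ FB and 198, 203 and 216 in PDGFRα hi FB (log2 fold change -1.92 with SE 0.23, adjusted p = 0.000574). *Tbxas1*, the thromboxane synthase gene, was at 18.8, 12.2 and 13.2 CPM in Fgfr2+ FB and 85.9, 80.3 and 53.3 in PDGFRα hi FB (log2 fold change -2.32 with SE 0.38, adjusted p = 0.00457), and with length-scaled counts its log2 fold change was -0.70 and the call was lost. All of these were higher in every PDGFRα hi FB library. The receptor gene *Ptgfr* was measured in Fgfr2+ FB, at 10.8, 20.0 and 10.9 CPM in Fgfr2+ FB and 0.122, 0.262 and 0 in PDGFRα hi FB (adjusted p = 0.00408), and had at most 3 counts in any PDGFRα hi FB library.

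Elastic fibre genes called by edgeR were all higher in Fgfr2+ FB. Of 19 genes tested 6 were higher in Fgfr2+ FB and none in PDGFRα hi FB, where 3 had an unadjusted p below 0.05 and DESeq2 called 1. The list median was 1.05. *Eln*, the elastin gene, was at 1210, 1062 and 1590 CPM in Fgfr2+ FB and 41.3, 15.5 and 73.6 in PDGFRα hi FB (log2 fold change 4.88 with SE 0.49, adjusted p = 0.000150). The microfibril-associated genes *Mfap5*, at 404, 269 and 336 CPM in Fgfr2+ FB and 6.98, 9.84 and 5.98 in PDGFRα hi FB (log2 fold change 5.46 with SE 0.32, adjusted p = 8.86e-06), and *Mfap4*, at 1612, 1532 and 2957 CPM in Fgfr2+ FB and 149, 185 and 223 in PDGFRα hi FB (log2 fold change 3.44 with SE 0.29, adjusted p = 5.33e-05), followed. No PDGFRα hi FB library reached the lowest Fgfr2+ FB library for any of these. *Fbln1*, which encodes fibulin 1, was at 1399, 2230 and 2265 CPM in Fgfr2+ FB and 249, 378 and 326 in PDGFRα hi FB (log2 fold change 2.62 with SE 0.24, adjusted p = 9.35e-05). *Fbn1*, the fibrillin gene, was at 2828, 2990 and 4113 CPM in Fgfr2+ FB and 1766, 1237 and 1773 in PDGFRα hi FB and stayed under the fold threshold (log2 fold change 1.05 with SE 0.21, adjusted p = 0.0149).

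Collagen genes were called in both directions. Among 22 interstitial collagen genes 3 were higher in Fgfr2+ FB and 2 in PDGFRα hi FB (median 0.18). *Col14a1*, a collagen of fibril surfaces, was at 579, 946 and 1496 CPM in Fgfr2+ FB and 33.7, 26.2 and 33.2 in PDGFRα hi FB (log2 fold change 5.01 with SE 0.35, adjusted p = 1.71e-05). *Col8a1* was at 159, 143 and 356 CPM in Fgfr2+ FB and 6.12, 5.77 and 10.5 in PDGFRα hi FB (log2 fold change 4.87 with SE 0.45, adjusted p = 9.13e-05). *Col28a1* was at 38.0, 20.2 and 14.3 CPM in Fgfr2+ FB and 1.22, 0.394 and 0.408 in PDGFRα hi FB (log2 fold change 5.11 with SE 0.80, adjusted p = 0.00312), and *Col24a1* ran the other way, at 14.8, 21.2 and 32.1 CPM in Fgfr2+ FB and 152, 156 and 133 in PDGFRα hi FB (log2 fold change -2.70 with SE 0.34, adjusted p = 0.000754). The fibrillar genes with the most counts were not called, *Col1a1* at 8632, 6789 and 11931 CPM in Fgfr2+ FB and 7325, 4890 and 9070 in PDGFRα hi FB and *Col3a1* at 8235, 7689 and 13190 CPM in Fgfr2+ FB and 6381, 5375 and 9930 in PDGFRα hi FB, and their groups overlapped. Of 28 basement membrane genes 1 was higher in Fgfr2+ FB and 3 in PDGFRα hi FB (median -0.25). The type IV chains *Col4a5*, at 207, 73.2 and 152 CPM in Fgfr2+ FB and 766, 461 and 879 in PDGFRα hi FB (log2 fold change -2.29 with SE 0.37, adjusted p = 0.00380), and *Col4a6*, at 39.6, 61.1 and 51.7 CPM in Fgfr2+ FB and 249.9, 357 and 292 in PDGFRα hi FB (log2 fold change -2.57 with SE 0.26, adjusted p = 0.000174), and the laminin chain *Lama5*, at 14.6, 1.96 and 14.1 CPM in Fgfr2+ FB and 115, 141 and 189 in PDGFRα hi FB (log2 fold change -3.87 with SE 0.61, adjusted p = 0.00331), were higher in PDGFRα hi FB. *Col4a5* and *Col4a6* lie head to head on the X chromosome. *Col15a1*, a collagen of the zone between basement membrane and stroma, was the call in the other direction, at 1729, 1044 and 1408 CPM in Fgfr2+ FB and 240.4, 204 and 234 in PDGFRα hi FB (log2 fold change 2.61 with SE 0.23, adjusted p = 6.16e-05). The model of 15 colonic libraries did not call *Col4a5* (-2.30), *Col4a6* (-2.58) or *Col15a1* (2.60). A model of 12 libraries of both tissues did not call *Lama5* (-3.86).

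Among 19 matricellular genes 5 were higher in Fgfr2+ FB and 1 in PDGFRα hi FB (median 1.00). *Ccn2*, also called CTGF, was at 458, 426 and 339.7 CPM in Fgfr2+ FB and 62.9, 34.2 and 60.1 in PDGFRα hi FB (log2 fold change 2.95 with SE 0.29, adjusted p = 0.000122), whereas its relative *Ccn4* was at 3.00, 5.78 and 2.38 CPM in Fgfr2+ FB and 53.0, 48.6 and 99.3 in PDGFRα hi FB (log2 fold change -4.17 with SE 0.53, adjusted p = 0.000768). *Spon1*, the spondin 1 gene, was at 322, 328 and 462 CPM in Fgfr2+ FB and 17, 36.5 and 33.0 in PDGFRα hi FB (log2 fold change 3.68 with SE 0.33, adjusted p = 6.84e-05). *Ccn2* and *Ccn4* thus moved in opposite directions within a family, each without overlap. The small leucine-rich proteoglycans gave 1 call each way among 11 tested (median 0.58), with *Dcn*, which encodes decorin, at 5980, 5541 and 6827 CPM in Fgfr2+ FB and 1296, 1153 and 1431 in PDGFRα hi FB (log2 fold change 2.23 with SE 0.17, adjusted p = 2.51e-05). *Ogn*, which encodes osteoglycin, was at 477, 204 and 306 CPM in Fgfr2+ FB and 1181, 1419 and 1520 in PDGFRα hi FB (log2 fold change -2.07 with SE 0.29, adjusted p = 0.00133). *Bgn* was at 6296, 6635 and 8749 CPM in Fgfr2+ FB and 3779, 4432 and 4973 in PDGFRα hi FB and stayed under the fold threshold (log2 fold change 0.71 with SE 0.18, adjusted p = 0.0458). Of 34 matrix protease and inhibitor genes 4 were higher in Fgfr2+ FB and 2 in PDGFRα hi FB (median 0.49). *Adamts19* was at 77.9, 64.0 and 82.8 CPM in Fgfr2+ FB and 1.59, 0.262 and 0.679 in PDGFRα hi FB (log2 fold change 6.42 with SE 0.61, adjusted p = 0.000107). *Mmp10*, a stromelysin gene, was at 0.321, 1.27 and 1.73 CPM in Fgfr2+ FB and 48.7, 27.2 and 70.7 in PDGFRα hi FB (log2 fold change -5.45 with SE 0.70, adjusted p = 0.000821). *Adamts18* was without a count in Fgfr2+ FB and at 5.02, 13.6 and 9.78 CPM in PDGFRα hi FB, at least 30.3-fold higher against 3 counts per library (adjusted p = 0.00575).

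**Figure D2:**
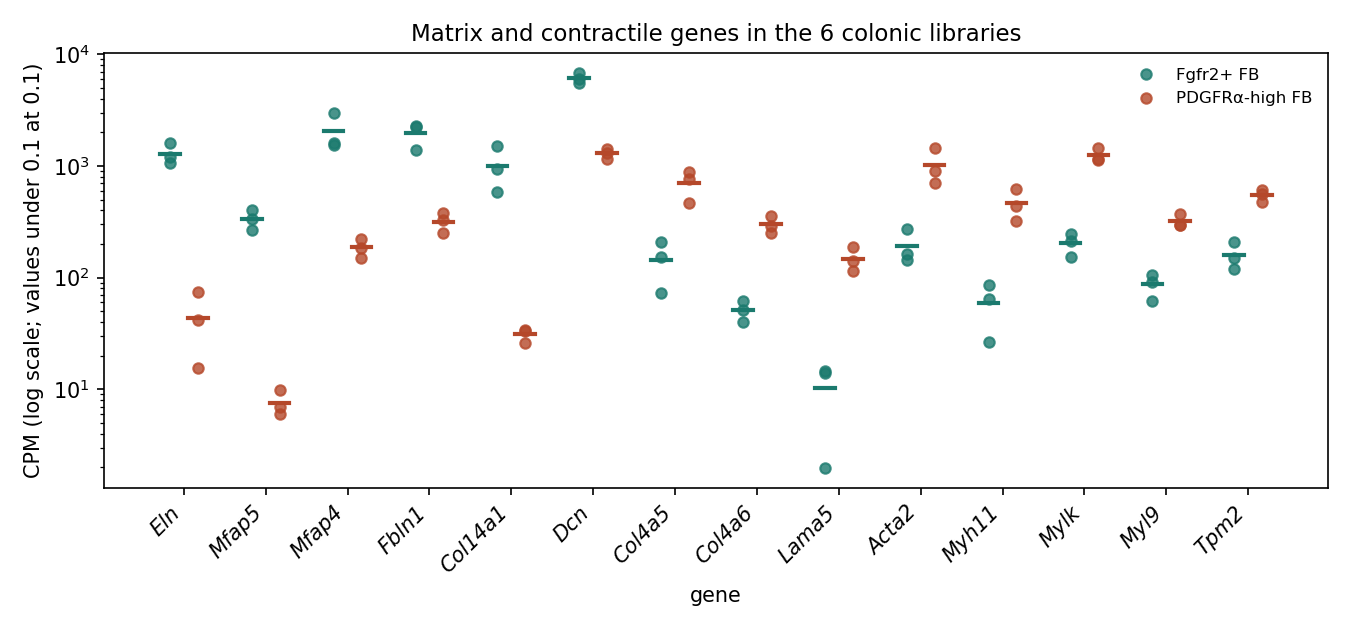
CPM (log scale) of 14 genes of the extracellular matrix and the contractile apparatus in the 3 libraries each of colonic Fgfr2+ FB (green) and colonic PDGFRα hi FB (orange). Points are libraries and bars are means. All 14 genes were picked among the calls, and the groups overlap at none of them, as at none of the 478 called genes. The elastic fibre genes, *Col14a1* and *Dcn* were higher in Fgfr2+ FB and the others higher in PDGFRα hi FB.

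By number and not by share, contractile genes were, among lists of unequal size, the list with the most calls higher in PDGFRα hi FB. Of 23 tested, 8 were higher in PDGFRα hi FB and 1 was higher in Fgfr2+ FB, with a median log2 fold change of -1.26. *Acta2*, the smooth muscle actin gene, was at 144, 162 and 273 CPM in Fgfr2+ FB and 901, 705 and 1436 in PDGFRα hi FB (log2 fold change -2.41 with SE 0.32, adjusted p = 0.00105). *Myh11*, the smooth muscle myosin heavy chain gene, was at 64.5, 26.4 and 86.4 CPM in Fgfr2+ FB and 321, 439 and 625 in PDGFRα hi FB (log2 fold change -2.97 with SE 0.41, adjusted p = 0.00132). *Mylk*, the myosin light chain kinase gene, was at 246, 154 and 213 CPM in Fgfr2+ FB and 1124, 1146 and 1449 in PDGFRα hi FB (log2 fold change -2.61 with SE 0.23, adjusted p = 6.51e-05). The lowest PDGFRα hi FB library lay above the highest Fgfr2+ FB library for each. *Myl9* was at 106, 62.0 and 92.0 CPM in Fgfr2+ FB and 298, 297 and 370.0 in PDGFRα hi FB (log2 fold change -1.90 with SE 0.26, adjusted p = 0.00119). *Tpm2* was at 119.8, 149 and 209.6 CPM in Fgfr2+ FB and 605, 473 and 558 in PDGFRα hi FB (log2 fold change -1.79 with SE 0.25, adjusted p = 0.00130). *Casq2*, a calcium store protein gene, was at 16.9, 4.50 and 2.93 CPM in Fgfr2+ FB and 97.7, 122 and 74.9 in PDGFRα hi FB (log2 fold change -3.60 with SE 0.61, adjusted p = 0.00551). *Tagln* was also called (log2 fold change -4.04), but is uncertain because 67.86% of its exon bases overlap another gene and the libraries do not preserve strand. *Cald1* lay just under the fold threshold (log2 fold change -1.47 with SE 0.20, adjusted p = 0.00123), and was called without replicate 1 of Fgfr2+ FB (-1.52) or replicate 1 (-1.54) or 2 (-1.60) of PDGFRα hi FB, and also with upper-quartile normalization (-1.54) and with length-scaled counts (-1.62). *Synpo2* was at 65.7, 98.2 and 99.2 CPM in Fgfr2+ FB and 372, 293 and 368 in PDGFRα hi FB (log2 fold change -1.98). The call in the other direction was *Myocd*, a co-activator of smooth muscle transcription, at 43.6, 44.0 and 64.4 CPM in Fgfr2+ FB and 3.06, 3.41 and 17.3 in PDGFRα hi FB (log2 fold change 2.67 with SE 0.66, adjusted p = 0.0460), which was not called without replicate 2 (2.78) or replicate 3 (2.47) of Fgfr2+ FB or replicate 1 (2.28) or replicate 2 (2.31) of PDGFRα hi FB.

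Markers of smooth muscle, summed over 8 genes, stood at 175, 204 and 319.5 CPM in Fgfr2+ FB and at 775, 811 and 1127 CPM in PDGFRα hi FB, with *Synpo2* the highest on average in Fgfr2+ FB and *Myh11* in PDGFRα hi FB. Of 6 tested 2 were called by edgeR, both higher in PDGFRα hi FB (median -0.86), while 1 was higher in Fgfr2+ FB at an unadjusted p below 0.05 and DESeq2 called 1 in that direction. Markers of pericytes, 10 genes, stood at 560.2, 661 and 762 CPM in Fgfr2+ FB and 459.9, 422 and 495 CPM in PDGFRα hi FB. *Rgs5*, the highest of them in Fgfr2+ FB, was at 372, 427 and 520.1 CPM in Fgfr2+ FB and 53.0, 47.0 and 61.1 in PDGFRα hi FB (log2 fold change 3.02 with SE 0.24, adjusted p = 3.28e-05), and *Abcc9* was the highest in PDGFRα hi FB. Of 7 pericyte genes tested, *Rgs5* was higher in Fgfr2+ FB and *Abcc9* in PDGFRα hi FB (median -0.72). The pericyte means of *Rgs5* and *Myh11* were 32950 and 6902 CPM. Markers of interstitial cells of Cajal, 5 genes, stood at 211, 123 and 68.8 CPM in Fgfr2+ FB and 701, 672 and 648 CPM in PDGFRα hi FB, with *Etv1* the highest in Fgfr2+ FB and *Gja1*, which many FB express, in PDGFRα hi FB. Of 4 such genes tested 2 were higher in PDGFRα hi FB (median -2.35). *Ano1*, the chloride channel gene among them, was at 1.07, 1.66 and 0.434 CPM in Fgfr2+ FB and 78.2, 79.1 and 81.5 in PDGFRα hi FB (log2 fold change -6.22 with SE 0.54, adjusted p = 6.16e-05), against a pericyte mean of 711 CPM. Both subsets were sorted as ESAM-1- cells after the outer muscle had been stripped off, whereas small intestinal smooth muscle cells were sorted as ESAM-1+. The part of pericytes, muscle cells or interstitial cells of Cajal in these differences was not tested.

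PDGFRα hi FB of the colon have been described as a mixture, and 17 genes described with its subclusters were examined. Among them, *Foxl1* was reported in every subcluster. Of the 17 genes 6 were called by edgeR, all higher in PDGFRα hi FB (median -0.79). In the direction of Fgfr2+ FB, 3 had an unadjusted p below 0.05 and DESeq2 called 0. The 6 calls by edgeR were *Acta2*, *Foxl1*, *Nrg1*, *Il1rl1*, *Ptgs2* and *Thbd*, the last of which encodes thrombomodulin and was at 531, 774 and 1122 CPM in Fgfr2+ FB and 2696, 2816 and 3114 in PDGFRα hi FB (log2 fold change -1.84 with SE 0.25, adjusted p = 0.00113). *Procr*, which encodes the protein C receptor of the same anticoagulant pathway, was at 35.8, 22.3 and 19.8 CPM in Fgfr2+ FB and 1148, 773 and 789.5 in PDGFRα hi FB (log2 fold change -5.13 with SE 0.31, adjusted p = 9.09e-06). No library overlapped at either gene.

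Neurotrophic factor and transmitter receptor genes were called in both directions. Of 31 neurotrophic and transmitter receptor genes 5 were higher in Fgfr2+ FB and 3 in PDGFRα hi FB (median -0.27). The endothelin ligand gene *Edn3* was at 2.36, 9.30 and 7.91 CPM in Fgfr2+ FB and 86.7, 72.4 and 85.9 in PDGFRα hi FB (log2 fold change -3.65 with SE 0.51, adjusted p = 0.00141), and the receptor gene *Ednrb* at 7.39, 6.75 and 6.61 CPM in Fgfr2+ FB and 245, 339.6 and 272 in PDGFRα hi FB (log2 fold change -5.37 with SE 0.28, adjusted p = 8.86e-06). *Edn3* and *Ednrb*, a pair required for the migration of enteric neural crest, were thus high in the same subset. *Ednra* was at 407, 461 and 378 CPM in Fgfr2+ FB and 862, 1020 and 1079 in PDGFRα hi FB, under the fold threshold (log2 fold change -1.26 with SE 0.19, adjusted p = 0.00217). *Gdnf*, the ligand of RET, was at 2.36, 8.03 and 2.60 CPM in Fgfr2+ FB and 47.9, 52.5 and 41.2 in PDGFRα hi FB (log2 fold change -3.45 with SE 0.58, adjusted p = 0.00489). Higher in Fgfr2+ FB were the receptor genes for the neuropeptides PACAP and VIP, *Adcyap1r1* at 184, 114 and 156 CPM in Fgfr2+ FB and 3.80, 3.94 and 7.07 in PDGFRα hi FB (log2 fold change 4.93 with SE 0.40, adjusted p = 3.72e-05). *Vipr2* was at 498, 420.1 and 348 CPM in Fgfr2+ FB and 63.7, 69.3 and 70.4 in PDGFRα hi FB (log2 fold change 2.63 with SE 0.23, adjusted p = 6.16e-05). The angiotensin II receptor gene *Agtr1a* was at 56.0, 41.1 and 34.1 CPM in Fgfr2+ FB and 5.39, 2.23 and 4.76 in PDGFRα hi FB (log2 fold change 3.39 with SE 0.53, adjusted p = 0.00305), and the GDNF family receptor gene *Gfra2* at 120.3, 123 and 159.9 CPM in Fgfr2+ FB and 16.3, 46.7 and 33.8 in PDGFRα hi FB (log2 fold change 2.05).

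Axon guidance and potassium channel genes showed calls both ways. Among 39 guidance genes 6 were higher in Fgfr2+ FB and 2 in PDGFRα hi FB (median -0.07, between -0.10 and 0.17 over the scalings tried). *Sema3f* was at 6.42, 27.0 and 20.9 CPM in Fgfr2+ FB and 157, 196 and 163 in PDGFRα hi FB (log2 fold change -3.26 with SE 0.46, adjusted p = 0.00148). *Sema3b* was at 6.85, 34.7 and 54.3 CPM in Fgfr2+ FB and 0.367, 1.44 and 0.679 in PDGFRα hi FB (log2 fold change 5.24 with SE 0.90, adjusted p = 0.00565), related secreted semaphorins with opposite direction. *Ntn4*, a netrin gene, was at 12.7, 47.7 and 43.8 CPM in Fgfr2+ FB and 0.979, 1.31 and 1.22 in PDGFRα hi FB (log2 fold change 4.86 with SE 0.69, adjusted p = 0.00155). Of 21 potassium channel genes 2 were called each way (median 0.17). *Kcnk2*, the mechanosensitive channel TREK-1, was at 85.8, 152 and 116 CPM in Fgfr2+ FB and 12.4, 7.61 and 8.15 in PDGFRα hi FB (log2 fold change 3.64 with SE 0.38, adjusted p = 0.000198). *Abcc9*, which encodes a subunit of ATP-sensitive channels, was at 51.4, 56.3 and 81.2 CPM in Fgfr2+ FB and 185, 219.9 and 213 in PDGFRα hi FB (log2 fold change -1.72 with SE 0.26, adjusted p = 0.00266).

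Of 47 mesenchymal transcription factor genes 9 were higher in Fgfr2+ FB and 4 in PDGFRα hi FB (median 0.57). *Sox6* was at 19.7, 10.4 and 21.6 CPM in Fgfr2+ FB and 595, 716 and 525 in PDGFRα hi FB (log2 fold change -5.16 with SE 0.33, adjusted p = 9.34e-06). *Tbx3* was at 30.3, 26.1 and 38.3 CPM in Fgfr2+ FB and 142, 234 and 222 in PDGFRα hi FB (log2 fold change -2.67 with SE 0.30, adjusted p = 0.000340). Both were low in every Fgfr2+ FB library. *Zeb2* was at 2142, 2032 and 1699 CPM in Fgfr2+ FB and 357, 357 and 415 in PDGFRα hi FB (log2 fold change 2.37 with SE 0.18, adjusted p = 3.15e-05). *Osr1* was at 121, 87.9 and 134 CPM in Fgfr2+ FB and 22.9, 19 and 14.3 in PDGFRα hi FB (log2 fold change 2.60 with SE 0.34, adjusted p = 0.000981). *Foxp2* was at 64.8, 71.4 and 61.5 CPM in Fgfr2+ FB and 14.4, 16.3 and 9.92 in PDGFRα hi FB (log2 fold change 2.27; 0.78 and not called with length-scaled counts). *Klf4* was at 145, 221 and 210.2 CPM in Fgfr2+ FB and 57.4, 21 and 47.0 in PDGFRα hi FB (log2 fold change 2.19). All of these were lower in every PDGFRα hi FB library than in any Fgfr2+ FB library. *Tcf21* was at 551, 627 and 657 CPM in Fgfr2+ FB and 149, 242 and 226 in PDGFRα hi FB (log2 fold change 1.56) and fell under the fold threshold without replicate 1 (1.38) of PDGFRα hi FB. *Pparg*, at 34.3, 49.5 and 36.7 CPM in Fgfr2+ FB and 5.39, 1.18 and 5.3 in PDGFRα hi FB (log2 fold change 3.33), was not called without replicate 2 (3.17) of Fgfr2+ FB.

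The genes with the smallest p or the largest fold outside these groups were of varied function. Higher in Fgfr2+ FB was *Serpina3n*, a serine protease inhibitor, at 999, 1220 and 1216 CPM in Fgfr2+ FB and 32.1, 45.7 and 56.5 in PDGFRα hi FB (log2 fold change 4.67 with SE 0.26, adjusted p = 8.86e-06). *Gsn*, which severs actin filaments, was at 1798, 2534 and 2838 CPM in Fgfr2+ FB and 244, 222 and 209 in PDGFRα hi FB (log2 fold change 3.40 with SE 0.22, adjusted p = 9.34e-06). *Sulf2*, a heparan sulfate editing enzyme, was at 481, 608 and 618 CPM in Fgfr2+ FB and 28.8, 47.1 and 46.9 in PDGFRα hi FB (log2 fold change 3.79 with SE 0.27, adjusted p = 1.71e-05). *C1qtnf3*, a C1q and TNF related secreted protein, was at 554, 565 and 485 CPM in Fgfr2+ FB and 38.8, 56.8 and 57.1 in PDGFRα hi FB (log2 fold change 3.38 with SE 0.24, adjusted p = 1.72e-05). None of these overlapped between the subsets. *Plppr5*, at 9.74, 11.6 and 41.7 CPM in Fgfr2+ FB and 0, 0 and 0.136 in PDGFRα hi FB (adjusted p = 0.00169), and *Flrt2*, at 8.99, 41.7 and 96.9 CPM in Fgfr2+ FB and 0.245, 0.394 and 0.136 in PDGFRα hi FB (adjusted p = 0.00102), had at most 3 counts in any PDGFRα hi FB library and varied widely within Fgfr2+ FB. Higher in PDGFRα hi FB was *Cybrd1*, a ferric reductase, at 90.8, 73.0 and 71.4 CPM in Fgfr2+ FB and 637, 705 and 624 in PDGFRα hi FB (log2 fold change -3.07 with SE 0.21, adjusted p = 1.61e-05). *Cd44*, the hyaluronan receptor, was at 203, 193 and 184 CPM in Fgfr2+ FB and 874, 1027 and 1077 in PDGFRα hi FB (log2 fold change -2.37 with SE 0.19, adjusted p = 3.72e-05). *Trpa1*, a cation channel that senses irritants, was at 0, 0 and 0.108 CPM in Fgfr2+ FB and 33.1, 21.5 and 22.3 in PDGFRα hi FB (adjusted p = 0.000302). *Cyfip2* was at 0, 0 and 0.325 CPM in Fgfr2+ FB and 32.8, 21.8 and 15.1 in PDGFRα hi FB (adjusted p = 0.00187), both with at most 3 counts in any Fgfr2+ FB library.

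The immediate early genes called, which are transcribed within minutes of a stimulus, were all higher in Fgfr2+ FB. Of 20 tested, 8 were higher in Fgfr2+ FB and none in PDGFRα hi FB by edgeR, with a median log2 fold change of 1.42 in the colon and -0.70 in the small intestine. None was higher in PDGFRα hi FB at an unadjusted p below 0.05 or by DESeq2. *Egr1* was at 1915, 4422 and 3871 CPM in Fgfr2+ FB and 682, 696 and 946 in PDGFRα hi FB (log2 fold change 2.12 with SE 0.29, adjusted p = 0.00113). *Zfp36*, whose product degrades cytokine mRNA, was at 527, 1335 and 1172 CPM in Fgfr2+ FB and 158, 210.2 and 264 in PDGFRα hi FB (log2 fold change 2.25 with SE 0.33, adjusted p = 0.00199). *Junb* was at 80.4, 131 and 147 CPM in Fgfr2+ FB and 22.5, 21.9 and 32.7 in PDGFRα hi FB (log2 fold change 2.21 with SE 0.34, adjusted p = 0.00311). Within Fgfr2+ FB, replicate 1 was the lowest for *Egr1*, *Zfp36* and *Junb*, and still lay above every PDGFRα hi FB library. *Fos* (log2 fold change 1.78) was not called without replicate 2 (1.52) or replicate 3 (1.70) of Fgfr2+ FB or replicate 1 (1.54) or replicate 2 (1.87) of PDGFRα hi FB. *Jun* (1.68) was not called without replicate 3 (1.43) of Fgfr2+ FB, *Fosb* (1.61) without replicate 2 (1.37) of Fgfr2+ FB, *Atf3* (3.64) without replicate 2 (3.27) of Fgfr2+ FB or replicate 1 (3.66) of PDGFRα hi FB and *Egr2* (2.08) without replicate 2 (1.70) or replicate 3 (2.19) of Fgfr2+ FB or replicate 1 (1.92) or replicate 2 (1.82) of PDGFRα hi FB. With the replicate block the call of *Egr2* was lost as well (2.11). Heat shock genes gave no call among 15 tested by edgeR (median 0.35), with 3 higher in Fgfr2+ FB and 1 in PDGFRα hi FB at an unadjusted p below 0.05 and 1 called by DESeq2. None of 30 interferon-induced genes was called by edgeR or DESeq2 (median 0.11), and 1 was higher in Fgfr2+ FB at that unadjusted p. Over all genes tested 3.32% were called by edgeR, so the absence of calls in these short lists says little.

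Immediate early and contractile genes are both known targets of serum response factor, which binds the CArG box, and most of their calls lay in opposite directions, *Myocd* apart, so their promoters were examined. RefSeq promoters of 300 bases around each gene's start (GRCm38.p6) were searched on both strands for the CArG box in its strict form. It was found in 535 of 32851 promoters (1.63%), and 488 of 27025 genes (1.81%) held it in at least 1 promoter. Of the 8 immediate early genes called, 7 had a promoter in the set and 2, *Zfp36* and *Egr2*, held the box, and of 9 contractile genes called 6 had a promoter and 1, *Myl9*, held it. The promoters of 1 gene of each direction are shown to set the boxes, in capitals, side by side. *Myl9* (chr2:156775214-156775513, plus strand) was higher in PDGFRα hi FB and *Zfp36* (chr7:28379179-28379478, minus strand) was higher in Fgfr2+ FB. A match describes the letters of the window and not binding.
Myl9: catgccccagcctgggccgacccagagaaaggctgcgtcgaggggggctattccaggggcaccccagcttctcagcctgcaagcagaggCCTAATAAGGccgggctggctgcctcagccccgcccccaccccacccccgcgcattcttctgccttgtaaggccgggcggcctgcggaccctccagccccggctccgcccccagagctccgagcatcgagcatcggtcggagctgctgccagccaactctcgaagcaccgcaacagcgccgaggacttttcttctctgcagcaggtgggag
Zfp36: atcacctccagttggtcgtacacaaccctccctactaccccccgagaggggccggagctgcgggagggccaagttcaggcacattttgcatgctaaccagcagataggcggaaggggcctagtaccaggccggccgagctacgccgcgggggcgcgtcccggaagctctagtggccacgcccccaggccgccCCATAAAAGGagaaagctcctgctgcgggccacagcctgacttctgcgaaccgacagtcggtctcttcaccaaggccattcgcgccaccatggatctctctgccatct

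Of 21 cell cycle genes 1 was called, *Mki67*, at 5.35, 2.25 and 14.7 CPM in Fgfr2+ FB and 76.8, 16.5 and 165 in PDGFRα hi FB (log2 fold change -3.54 with SE 0.83, adjusted p = 0.0347), and the list median was -1.28. The PDGFRα hi FB libraries spread widely, and the call was lost without replicate 1 (-3.36) or replicate 2 (-3.09) of Fgfr2+ FB or replicate 1 (-3.62) or replicate 3 (-2.65) of PDGFRα hi FB. Of the cells that the gates were to remove, epithelial markers (10 genes) summed to 6.32, 6.36 and 2.38 CPM in Fgfr2+ FB and 11.3, 5.25 and 122 CPM in PDGFRα hi FB. The highest value came from *Muc2* in replicate 3, and *Epcam*, *Krt8*, *Krt18*, *Krt20* and *Car1* had no count in the 6 libraries. Endothelial markers summed to between 60.1 and 109 CPM in the 6 libraries, immune markers to between 7.59 and 26.0 CPM, glial markers to between 7.73 and 23.8 CPM and mesothelial markers to between 1.18 and 5.16 CPM. Plasma cell markers summed to between 7.71 and 128 CPM, with *Igha* the highest on average. In these lists 1 of 20 tested genes was called by edgeR, *Lyve1*, at 0.107, 0 and 0 CPM in Fgfr2+ FB and 2.94, 2.1 and 3.67 in PDGFRα hi FB (adjusted p = 0.0378), with at most 3 counts in any Fgfr2+ FB library and no call without replicate 2 (adjusted p = 0.109) or replicate 3 (adjusted p = 0.0908) of Fgfr2+ FB or with the replicate block. In the direction of Fgfr2+ FB, 1 endothelial gene had an unadjusted p below 0.05 and DESeq2 called 1. The list medians were -0.35 for epithelium (between -0.90 and -0.34 over the scalings tried), -0.24 for endothelium, 0.87 for immune cells, -0.30 for glia (between -0.84 and -0.30), 1.38 for mesothelium and -0.51 for plasma cells.

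Markers of the neighbouring FB subsets of the colon were also examined. Markers of CD81+ FB, 9 genes with *C3* the highest on average, summed to 1264, 2022 and 3775 CPM in Fgfr2+ FB and 122, 151 and 173 CPM in PDGFRα hi FB, and 4 of 8 tested were higher in Fgfr2+ FB (median 3.72). They were *C3*, *Grem1*, *Cd34* and *Pi16*, the last at 11.3, 10.4 and 73.2 CPM in Fgfr2+ FB and 0.857, 2.36 and 1.09 in PDGFRα hi FB (log2 fold change 4.44) and not called without replicate 3 (2.91) of Fgfr2+ FB or replicate 1 (4.18), replicate 2 (4.99) or replicate 3 (4.29) of PDGFRα hi FB. The subsets were gated by CD34, so the direction of *Cd34* was set by the sort. *Cd81* itself is in the list and was not among the calls. Markers of CD90+ FB, 3 genes, summed to 1354, 1350 and 1947 CPM in Fgfr2+ FB and 738, 265 and 753 CPM in PDGFRα hi FB, and 2 of 3 tested, *Thy1* and *Pparg*, were higher in Fgfr2+ FB (median 3.33, between 3.26 and 3.81 over the scalings tried). The third, *Igfbp5*, was not called and had the highest level of the 3 in every library. CD81+ FB were gated as PDPN int and CD90+ FB by CD90, against PDPN hiCD90- for Fgfr2+ FB. Whether cells of those subsets were sorted with Fgfr2+ FB was not tested. Over the 5 colonic populations, of the 256 genes higher in Fgfr2+ FB 108 had their highest mean in CD81+ FB, 73 in Fgfr2+ FB, 42 in pericytes and 33 in CD90+ FB. Of the 222 genes higher in PDGFRα hi FB, the highest mean was that of PDGFRα hi FB itself for 165, of pericytes for 54 and of CD81+ FB for 3. The lower subset of a called gene could not hold its highest mean. The same counts over all genes tested are not given, so these counts have no share to be read against. *Grem1* averaged 2000 CPM in CD81+ FB, 394 CPM in CD90+ FB and 351 CPM in Fgfr2+ FB, and *Rspo3* averaged 1492, 16.0 and 35.3 CPM in the same order. *Wnt2b* averaged 292, 483 and 699 CPM, *Sfrp1* 1392, 1976 and 3460 CPM and *Fgf10* 15.1, 127 and 161 CPM. *Grem1* and *Rspo3* were thus highest in CD81+ FB, and *Wnt2b*, *Sfrp1* and *Fgf10* in Fgfr2+ FB. These orders of means were not tested.

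The same contrast was fitted in 6 small intestinal libraries that the colonic comparison did not use. Of 14245 genes tested 459 were called (3.22%), with 232 on the Fgfr2+ FB side (1.63%) and 227 on the PDGFRα hi FB side (1.59%). Without replicate 1, 2 or 3 of small intestinal PDGFRα hi FB 233, 232 and 267 genes were called there. Called in both tissues were 173 genes, of which 169 had the same direction, 35.4% of the colonic and 36.8% of the small intestinal calls. Of these, 94 were on the Fgfr2+ FB side and 75 on the PDGFRα hi FB side. Of the 478 colonic calls 430 were tested in the small intestine, and 351 of them (81.6%) had the same sign there, against 7503 of the 13629 genes tested in both tissues (55.1%). In the small intestine *Sox6* was at 49.3, 13.0 and 44.5 CPM in Fgfr2+ FB and 1266, 1152 and 1928 CPM in PDGFRα hi FB, a log2 fold change of -5.36 beside -5.16 in the colon. *Bmp7* was at 168, 66.9 and 49.6 CPM and 990.5, 1033 and 614 CPM (-3.21 beside -3.25). *Aldh1a1* was at 117, 243 and 128 CPM and 1326, 1907 and 1177 CPM (-3.17 beside -3.15). These genes were called alike in both tissues, without overlap in either. The 4 genes called in opposite directions were *Mmp10*, *Col6a4*, *Ctsc* and *Steap4*, named after their values were seen. The difference between the colonic and the small intestinal fold change was tested as an interaction, and it was called for 200 of 15686 genes (1.28%). The colonic value was the more positive for 94 of them (0.599%) and the more negative for 106 (0.676%), and 73 of the 478 colonic calls were among them. By DESeq2 the interaction was called for 563 genes, and without a filter on low counts for 339. *Nrg1*, 1.63 in the small intestine beside -3.91, and *Ccl11*, 0.71 beside 5.26, were genes with such a difference, of -5.53 and 4.55.

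**Figure D3:**
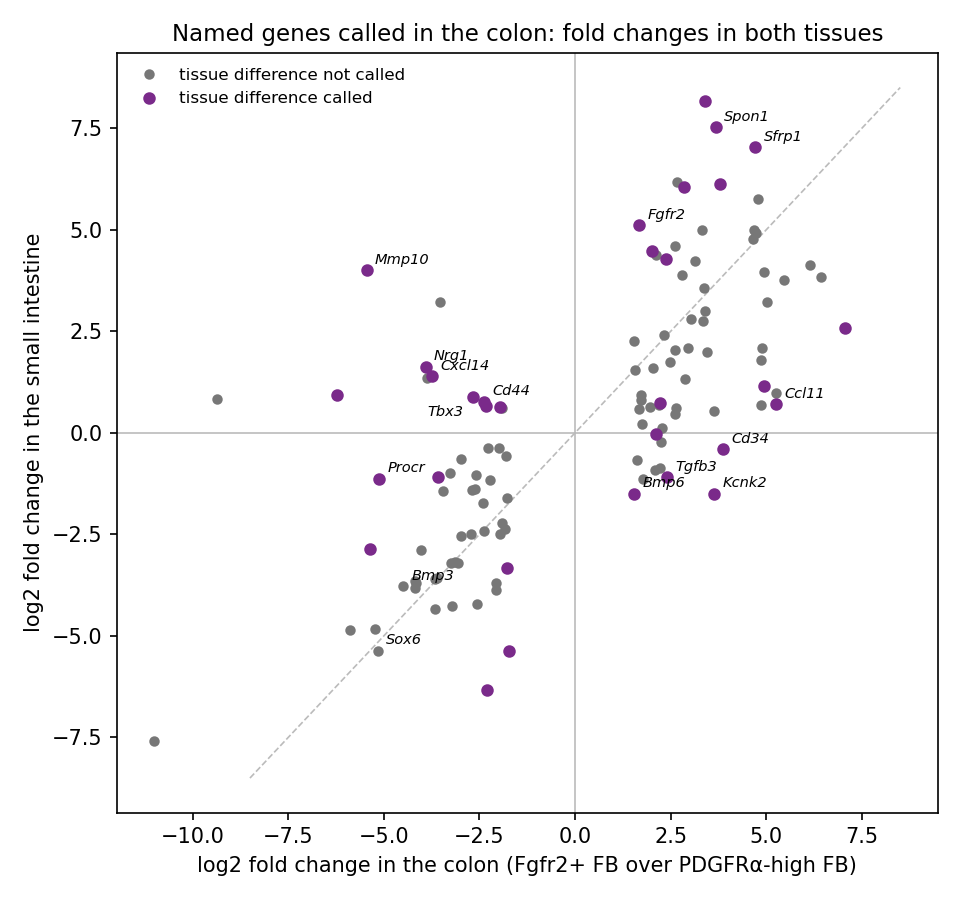
Log2 fold change of Fgfr2+ FB over PDGFRα hi FB in the colon (horizontal axis) and in the small intestine (vertical axis) for the 119 genes named in the text that were called in the colon and tested in the small intestine. Purple points are the 31 genes whose difference between tissues was itself called, the dashed line marks equal values, and 97 of the 119 genes have the same sign in both tissues. Some genes were named because of that difference, so 31 of 119 is no estimate of how often the tissues differ. The difference was called for 73 of all 478 colonic calls and for 200 of 15686 genes (1.28%).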

How the data were processed

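The series holds bulk RNA-seq of sorted mesenchymal cells, amplified as whole transcriptome without preserving strand. According to the submitters' notes, the authors trimmed reads with Trim Galore 0.4.0, examined them with FastQC 0.11.2 and quantified transcripts with kallisto 0.42.5 (mm10, GRCm38); the transcript set is not given in the sources used here. The authors deposited an estimated count, not normalized, and a TPM value for each of 98492 transcripts and library.

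Of these transcripts 97204 matched 32421 genes of the GENCODE M21 primary assembly annotation by Ensembl identifier, holding between 98.4% and 99.0% of the estimated counts of the 6 colonic libraries. Gene sums of the estimated counts were rounded. Tests were run with edgeR 4.0.16 (R 4.3.3; TMM, quasi-likelihood) on genes reaching 6 counts in 3 or more libraries, with functions tested on simulated data. The SE is the size of the log2 fold change over the root of F. CPM were scaled by TMM over all 30 libraries. TPM served to compare levels between genes and were computed anew over the matched transcripts alone. Among the deposited values, the transcript with the highest TPM, which matched no gene, held up to 44.4% of the TPM in the 6 colonic libraries. The alternatives were DESeq2 1.42.0, other normalizations, filters and fold thresholds, length-scaled counts, the replicate block, larger models, single transcripts and each library left out. A count of 0 was set against a floor of 3 counts per library, between 0.294 and 0.408 CPM here, which covers counting error only. Genes were treated as uncertain where at least 50% of their 31-base stretches or of their exon bases are shared with other genes, as for 14 and 7 of the 478 calls. Named genes are called members of gene lists by role with their most abundant members not called, the sorting genes, the called genes with the largest fold or smallest p, and those with the largest difference between tissues; not every gene under the rule is named, and some results are not reported. The members and the lists were chosen with earlier results of these data known. An annotation of the chromosomes alone (32342 genes) was added as an alternative after the data had been seen, and its counts of calls were seen before those of the primary assembly, which had been the original choice.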

Additional observations from a re-analysis of the deposited data

Results flagged for a closer look

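The difference between the colonic and the small intestinal log2 fold change was tested as an interaction in a model of the 12 libraries (edgeR, n = 3 in each of 4 groups), and 200 of 15686 genes were called (1.28%). Of these genes 73 were colonic calls, and the others were called in the small intestine alone or in neither tissue. DESeq2 called 563 genes, and the fit without a filter on low counts 339. The sorting gates differ between the tissues, so that gate and tissue cannot be told apart. Each gene below was singled out because this difference passed the test, and the values are colonic minus small intestinal log2 fold changes.

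For signalling genes, *Fgfr2* was at 1454, 2017 and 1581 CPM in Fgfr2+ FB and 39.6, 66.9 and 38.7 CPM in PDGFRα hi FB of the small intestine, and its fold change was smaller in the colon (difference -3.44, SE 0.41, adjusted p = 0.000386), as was that of *Pdgfra* (1.55), *Sfrp1* (-2.31) and *Fgf10* (-3.18). *Nrg1* was at 102, 50.3 and 52.9 CPM in small intestinal Fgfr2+ FB and 27.7, 32.4 and 6.12 CPM in PDGFRα hi FB, where it was not called, against a colonic log2 fold change of -3.91 (difference -5.53, SE 0.72, adjusted p = 0.000706). *Fgf7* differed by -4.66, *Bmp6* by 3.05 and *Tgfb3* by 3.52, the last at 51.8, 49.8 and 77.2 CPM and 113, 166 and 105 CPM in the small intestine, where the order of the subsets was turned and not called. *Cd34*, used in the colonic gates, differed by 4.26.

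Among immune genes, *Ccl11* was at 2636, 1366 and 1008 CPM in small intestinal Fgfr2+ FB and 1205, 1031 and 821 CPM in PDGFRα hi FB (difference 4.55, SE 0.54, adjusted p = 0.000386), high in both subsets there. *Cxcl14* was at 117, 182 and 64.7 CPM and 50.9, 65.1 and 23.6 CPM (difference -5.13, SE 0.70, adjusted p = 0.00108). *Il33* differed by 4.48 and *Vcam1* by -2.45. The prostanoid genes *Ptgs1* and *Tbxas1* differed by -2.59 and -2.96, and the receptor genes *Procr* and *Cd44* by -4.00 and -3.13. *Egr1* differed by 2.16.

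Among matrix genes, *Mmp10* was at 792, 921 and 630.1 CPM in small intestinal Fgfr2+ FB and 33.3, 14.9 and 96.4 CPM in PDGFRα hi FB, the reverse of the colon (log2 fold change 4.01 beside -5.45; difference -9.46, SE 0.93, adjusted p = 0.000172). *Col4a5* differed by 4.08, *Fbn1* by 1.62, *Dcn* by 1.51, *Spon1* by -3.84 and *Sulf2* by -2.33. *Col28a1*, not tested in the small intestine alone, differed by 8.00, a fitted value that depends on the prior count.

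Among receptors, channels and transcription factors, *Kcnk2* was at 85.8, 46.5 and 126 CPM in small intestinal Fgfr2+ FB and 231, 253 and 245 CPM in PDGFRα hi FB (difference 5.14, SE 0.54, adjusted p = 0.000238). *Ednrb* differed by -2.50, *Ednra* by 1.79, *Adcyap1r1* by 3.78, *Agtr1a* by -4.77 and *Abcc9* by 3.66. *Tbx3* differed by -3.53, *Zeb2* by -1.90, *Gja1* by -2.48 and *Ano1* by -6.93.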

How the results depend on the processing

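In the colon 478 genes were called, 256 on the Fgfr2+ FB side and 222 on the PDGFRα hi FB side. DESeq2 called 799 (434 and 365), among them all of the 478, a model of the 15 colonic libraries 248 (157 and 91; 239 of the 478), and a test of single transcripts 113 (69 and 44). Leaving out each library gave 289 to 512 genes (165 to 275 and 115 to 237). In the small intestine 459 genes were called, 997 by DESeq2, 68 as single transcripts and 232 to 438 with a library left out. The interaction counted 200 genes, 563 by DESeq2 and 339 without a filter on low counts. Why these counts moved was not tested. The other settings kept each count within 1.5 times. Upper-quartile normalization gave 238 and 237 genes in the colon. Same-numbered libraries of the 2 subsets had correlated deviations of -0.006, -0.002 and 0.103, and the numbers were not taken as pairs in the first fit; the replicate block gave 438 genes. The annotation of the chromosomes alone, chosen after the data were seen, gave 478 colonic genes, the same ones, 460 small intestinal and 201 interaction genes. For the 130 called genes named in the text, no setting compared gene by gene turned the direction (single transcripts were not, and genes at 3 or fewer counts in a subset were not tested without a library of the other subset); 63 of 1300 values under settings that use all libraries were no longer called. The model of the 15 colonic libraries lost 33 of these calls: *Fgfr2*, *Bmp6*, *Nbl1*, *Rspo3*, *Fzd1*, *Foxl1*, *Nrg1*, *Vegfa*, *Nrp1*, *Igfbp3*, *Il1rl1*, *Aldh1a3*, *Ptgs2*, *Col24a1*, *Col4a5*, *Col4a6*, *Col15a1*, *Ogn*, *Mmp10*, *Myocd*, *Edn3*, *Gdnf*, *Sema3b*, *Tbx3*, *Osr1*, *Tcf21*, *Alcam*, *Vcam1*, *Egr2*, *Mki67*, *Adamts18*, *Cdh13* and *Lyve1*. The model of 12 libraries lost 14: *Thy1*, *Wnt2*, *Rspo3*, *Foxl1*, *Lama5*, *Fos*, *Fosb*, *Atf3*, *Egr2*, *Mki67*, *Klf4*, *Lyve1*, *Pi16* and *Il6*. Length-scaled counts lost 10: *Thy1*, *Foxl1*, *Ltbp1*, *Tbxas1*, *Myocd*, *Egr2*, *Mki67*, *Foxp2*, *Cdh13* and *Lyve1*. Upper-quartile normalization lost *Bmp6*, *Nrp1* and *Myocd*, the replicate block *Egr2* and *Lyve1*, and the fit without a filter *Lyve1*. *Id3* and *Aldh1a2*, not called, changed sign: without a library *Id3* ranged from -0.22 to 0.05 (0.05 without replicate 2 of Fgfr2+ FB) and *Aldh1a2* from -0.21 to 0.05 (0.02 and 0.05 without replicate 2 and 3 of Fgfr2+ FB). At this depth 3 counts correspond to between 0.294 and 0.408 CPM, and differences below that level were not detectable.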

Other observations

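Adhesion genes were called in both directions. Of 25 cadherin and junction genes 3 were called in each direction (median log2 fold change -0.06 against 0.03 for all genes tested). *Gja1*, the gap junction gene connexin 43, was at 52.1, 33.6 and 14.4 CPM in Fgfr2+ FB and 443, 352 and 393 in PDGFRα hi FB (log2 fold change -3.58 with SE 0.41, adjusted p = 0.000378). *Cdh13*, a cadherin without a membrane-spanning part, was at 19.9, 30.9 and 22.3 CPM in Fgfr2+ FB and 64.9, 129 and 114 in PDGFRα hi FB (log2 fold change -2.08 with SE 0.36, adjusted p = 0.00654). *Vcam1*, a ligand of leukocyte integrins, was at 175, 247 and 279.7 CPM in Fgfr2+ FB and 50.6, 49.9 and 71.2 in PDGFRα hi FB (log2 fold change 2.02 with SE 0.28, adjusted p = 0.00126). *Gja1* and *Cdh13* were high in every PDGFRα hi FB library and *Vcam1* in every Fgfr2+ FB library. *Cdh13* was not called with length-scaled counts (-1.88). The model of 15 colonic libraries called neither *Cdh13* (-2.09) nor *Vcam1* (2.02). *Alcam*, a cell adhesion gene, was at 2.03, 1.47 and 0 CPM in Fgfr2+ FB and 39.1, 68.5 and 25.5 in PDGFRα hi FB (log2 fold change -5.23 with SE 0.94, adjusted p = 0.00803) and was not called without replicate 2 (-4.78) of PDGFRα hi FB. Of 18 integrin genes 1 was called each way (median 0.03, between -0.04 and 0.08 over the scalings tried). Of 10 Notch pathway genes 2 were called by edgeR, both higher in Fgfr2+ FB (median 0.87, between 0.80 and 1.22 over the scalings tried), while 1 was higher in PDGFRα hi FB at an unadjusted p below 0.05 and DESeq2 called 1 in that direction. Of 17 genes of MHC and antigen processing 1 was called by edgeR, higher in Fgfr2+ FB (median -0.34), while 1 was higher in PDGFRα hi FB at an unadjusted p below 0.05 and DESeq2 called 0 in that direction.

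The spread within the subsets is given without a test. The common biological coefficient of variation was 0.651 in colonic Fgfr2+ FB and 0.502 in colonic PDGFRα hi FB. Over genes, Pearson correlations between libraries (log2 CPM; genes are no replicates) lay between 0.810 and 0.895 within Fgfr2+ FB, between 0.863 and 0.928 within PDGFRα hi FB and between 0.761 and 0.864 across the subsets. The CD81+ FB marker sums of 1264, 2022 and 3775 CPM in replicates 1, 2 and 3 of Fgfr2+ FB were an instance of that spread, with *C3* at 455, 1195 and 2453 CPM and *Pi16* at 11.3, 10.4 and 73.2 CPM in the same libraries.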
